A study of Mus musculus with 30 samples.

Results

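The potassium, calcium and sodium channel genes were taken as every row of the deposited expression table whose symbol begins with Kcn or Cacn, or with Scn followed by digits and then a or b, with pseudogenes and antisense transcripts left out. The rule gave 134 genes of 21652 in the table, made up of 94 potassium channel genes, 26 calcium channel genes and 14 sodium channel genes. The rule used names only and no measured value, but it was chosen with earlier results of these data known. The 2 fat depots sampled were the white inguinal depot (iWAT) and brown fat (BAT). The mice were C57BL/6J males aged 7 to 8 weeks, and the labels name no engineered allele. Each depot had 3 groups of 5 libraries, namely 22 °C, 6 °C for 6 h and 6 °C for 24 h, which made 30 polyA RNA libraries in all. The 22 °C groups are labelled so, while the housing notes give a room at 24 ± 2 °C. The labels do not say whether each library is a separate mouse or whether the 2 depots came from the same mice. The p-values therefore measure the spread between these libraries, taken as unpaired. Whole pieces of tissue were sequenced, so fewer cells of a type and less RNA per cell cannot be told apart in any result given here.

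Ion channels are membrane proteins that let chosen ions run down their gradients, and an adult fat cell uses them to set its resting potential, its calcium entry and its response to noradrenaline. Two-pore-domain and inwardly rectifying potassium channels hold the membrane near rest, voltage-gated potassium channels end depolarisation, and voltage-gated calcium and sodium channels start it. In each class a pore-forming alpha subunit is joined by auxiliary subunits that govern its traffic and gating. Fat also holds vessels, nerve endings, stromal cells and, at its edges, muscle fibres, all of which express channels of their own.

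Most channel genes were expressed at a low level. Of the 134, 8 had no count in any library, and between 64 (BAT, 6 h) and 81 (iWAT, 22 °C) had a count in all 5 libraries of a group. In the iWAT fit 66 genes passed the filter on low counts, which required about 0.31 CPM (counts scaled to library size) in at least 5 libraries. The BAT fit tested 62 genes and the fit of all 30 libraries 77. Of those tested, 23, 27 and 27 respectively were over that level in all 5 libraries of at most 1 group. Of these, 12, 12 and 13 had 1 such group, and the other 11, 15 and 14 had none and passed through libraries of more than 1 group. The 57 genes outside the fit of all libraries had group means of at most 0.33 CPM. Library totals ran from 25345889 to 40986043 counts, which puts 1 count in a library at 0.0188 to 0.0466 CPM.

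One tissue component bore on several members and is given first. The summed level of 10 skeletal muscle markers (contractile and metabolic proteins of muscle fibres such as Acta1 and Ckm) was 3350 CPM in replicate 2 of iWAT at 22 °C and between 1.96 and 7.85 CPM in the other iWAT libraries. In BAT it ran from 242 to 8119 CPM at 22 °C, from 8.97 to 1438 CPM after 6 h and from 2.19 to 4126 CPM after 24 h. All 10 markers had counts in both 22 °C groups, and 4 of them were at 0 in every iWAT library of the 6 h group. The sum of 8 brown adipocyte markers in iWAT spanned 147 to 1294 CPM at 22 °C, 795 to 6065 CPM after 6 h and 3138 to 5289 CPM after 24 h. The sum of 10 stromal progenitor markers in iWAT spanned 2614 to 4903, 1701 to 2942 and 1533 to 2403 CPM in the same groups. The 6 epithelial markers summed to at most 1.3 CPM in any library.

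Per unit of transcript length, a single potassium channel took a large share of all channel RNA. On the deposited FPKM scale, which divides counts by library total and gene length and so allows levels of different genes to be compared, Kcnk3 made up 63.8 ± 9.6% (SD, n = 5) of the summed level of the 134 genes in BAT at 22 °C. The share was 80.4 ± 3.12% after 6 h and 75.5 ± 5.27% after 24 h. In iWAT the same share was 14.7 ± 5.05% at 22 °C, 32.4 ± 16.3% after 6 h and 44.3 ± 4.44% after 24 h. The sum of all channel genes other than Kcnk3 went the other way in iWAT, with 129 ± 15.4, 93.3 ± 14.5 and 87.0 ± 6.8 FPKM. The 24 h libraries (77.2 to 92.8 FPKM) did not overlap those at 22 °C (112 to 152 FPKM, the highest being replicate 2 with its muscle markers). The FPKM scale fell for genes at large too. The median log2 change of all genes tested was −0.247 and −0.187 on log2(FPKM + 0.1), beside −0.03 and −0.04 in the tests on counts below. Of 10 endothelial markers in iWAT, 5 were called lower at 6 h and 6 at 24 h and none higher, with sums of 472 to 825, 426 to 572 and 476 to 607 CPM in the 3 groups. Of 10 macrophage markers 3 were called lower at 6 h and none at 24 h (sums of 336 to 899, 313 to 651 and 393 to 631 CPM). The part of these cells in the iWAT falls of channel genes was not tested.

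At 22 °C the leading channel gene of iWAT was Scn7a with 32.1 ± 3.46 FPKM, and Kcnk3 had 21.9 ± 6.54 FPKM and the silent modifier subunit Kcns3 12.6 ± 1.9 FPKM. BAT at 22 °C was led by Kcnk3 with 125 ± 16.6 FPKM, while the vascular-type inward rectifier Kcnj8 had 11.4 ± 1.19 FPKM. A mean over 1 FPKM was seen for 20 genes in iWAT at 22 °C and for 16 in BAT. Summed sodium channel levels in iWAT were 54.6 ± 4.23 FPKM at 22 °C and 31.2 ± 2.4 FPKM after 24 h, and the potassium channel sums were 81.5 ± 3.71 and 117 ± 10.7 FPKM. These sums carry the same limit of the FPKM scale.

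**Figure D1:**
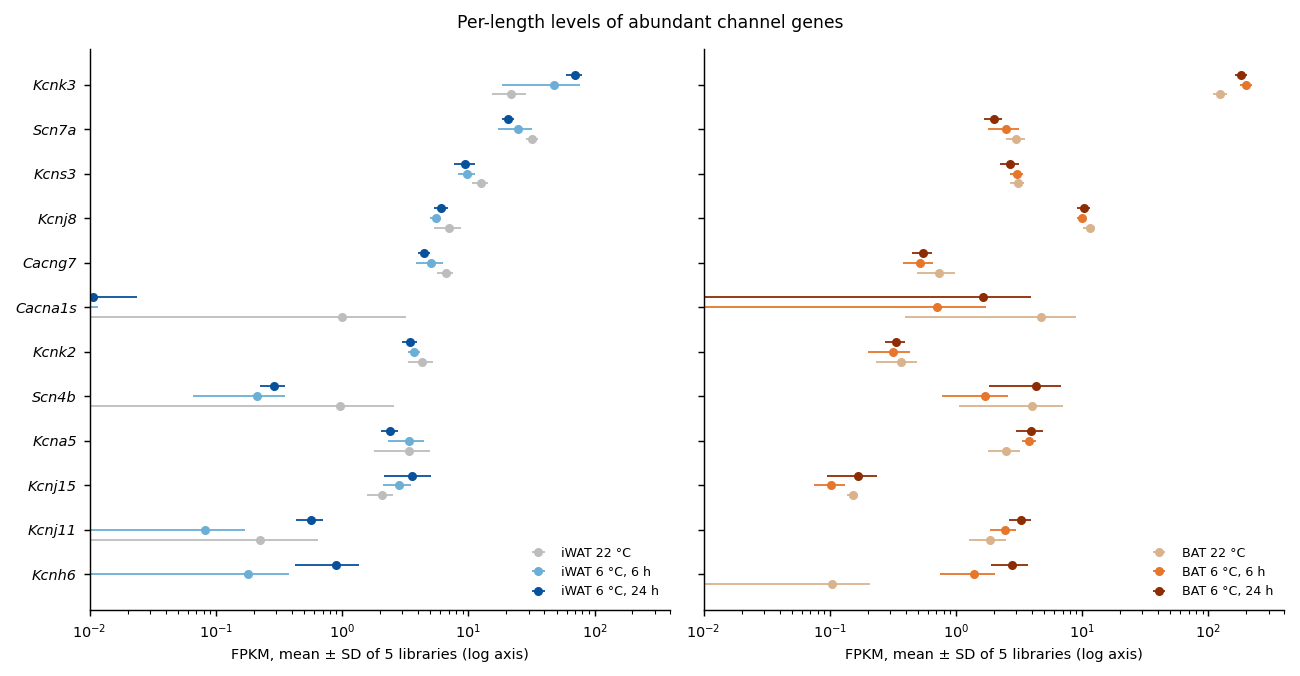
FPKM of channel genes that ranked among the 8 most abundant in at least 1 group, on a log axis, with the mean and SD of 5 libraries per group, iWAT on the left and BAT on the right. Kcnk3 lies to the right of all other members in every BAT group, whereas Scn7a leads in iWAT at 22 °C with 32.1 FPKM. Bars that reach the left edge have an SD as large as the mean, and Kcnh6 in iWAT at 22 °C is not drawn because all 5 values were 0.

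After cold exposure 25 channel genes were called in at least 1 depot and time, 18 in iWAT and 14 in BAT. No matching count over all genes was made. In each single comparison, given below, the share of channel genes called was under that of all genes. In iWAT 9 of 12 called at 6 h and 10 of 13 at 24 h were lower than at 22 °C. These are 9 and 10 of 66 tested, beside 10.1% of all genes called lower at both times. In BAT 8 of 11 called at 24 h were higher, which is 8 of 62 tested, beside 12.8% of all genes called higher. Among the 8 were the potassium channels Kcnk3, Kcnh6, Kcna5 and Kcnj11 and the calcium channel Cacna1a. A gene was called when its Benjamini-Hochberg adjusted p over all genes tested was under 0.05 in edgeR's quasi-likelihood test. In iWAT after 6 h 12 of 66 channel genes were called, 3 higher and 9 lower, which is 18.2% beside 23% of all genes tested. After 24 h the iWAT numbers were 3 higher and 10 lower, or 19.7% beside 23%. In BAT 4 rose and 3 fell of 62 after 6 h (11.3% beside 22.7% of all genes), and 8 rose and 3 fell after 24 h (17.7% beside 23.1%). The share of all genes called higher was 12.9% and 12.8% in iWAT, and 12.5% and 12.8% in BAT; the share called lower was 10.1% at both times in iWAT, and 10.2% and 10.4% in BAT. The median log2 fold change of the tested channel genes was −0.28 and −0.33 in iWAT, beside −0.03 and −0.04 for all genes, and −0.33 and −0.27 in BAT, beside −0.01 and −0.01. These medians cover only the members that passed the filter.

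The iWAT count at 6 h depended on single libraries. It was 5 without 22 °C replicate 1 (3 higher and 2 lower) and 6 without 22 °C replicate 2, the muscle-rich library (3 higher and 3 lower). Without 6 h replicate 4 or 5 it was 6 (2 higher and 4 lower in each case). The excess of lower genes at 6 h was thus lost without 22 °C replicate 1 or 2. Calls over all genes fell too, from 3148 to 1525, 1585, 2219 and 1913 in the same order of libraries. The BAT count at 6 h was 13 without 22 °C replicate 2 (4 higher and 9 lower) and 17 without 6 h replicate 2 (5 higher and 12 lower), in place of 7. Calls over all genes were 2869 and 2901 in those fits, in place of 2967. The balance in BAT at 6 h also turned to mostly lower in limma on FPKM (4 higher and 7 lower with either pseudocount) and in the fit of all 30 libraries (2 higher and 8 lower). That fit gave 5 higher and 5 lower in BAT at 24 h. Between 6 h and 24 h no channel gene was called in iWAT by edgeR, limma on FPKM or DESeq2. There edgeR called 0.00731% of all genes, and 10 channel genes had an unadjusted p under 0.05 in its test. Over all genes DESeq2 called 122, limma on log2(FPKM + 0.1) called 0 and limma on log2(FPKM + 1) called 5. In BAT 1 channel gene was called between the times, higher at 24 h, beside 13% of all genes in either direction and 6.6% called higher.

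**Figure D2:**
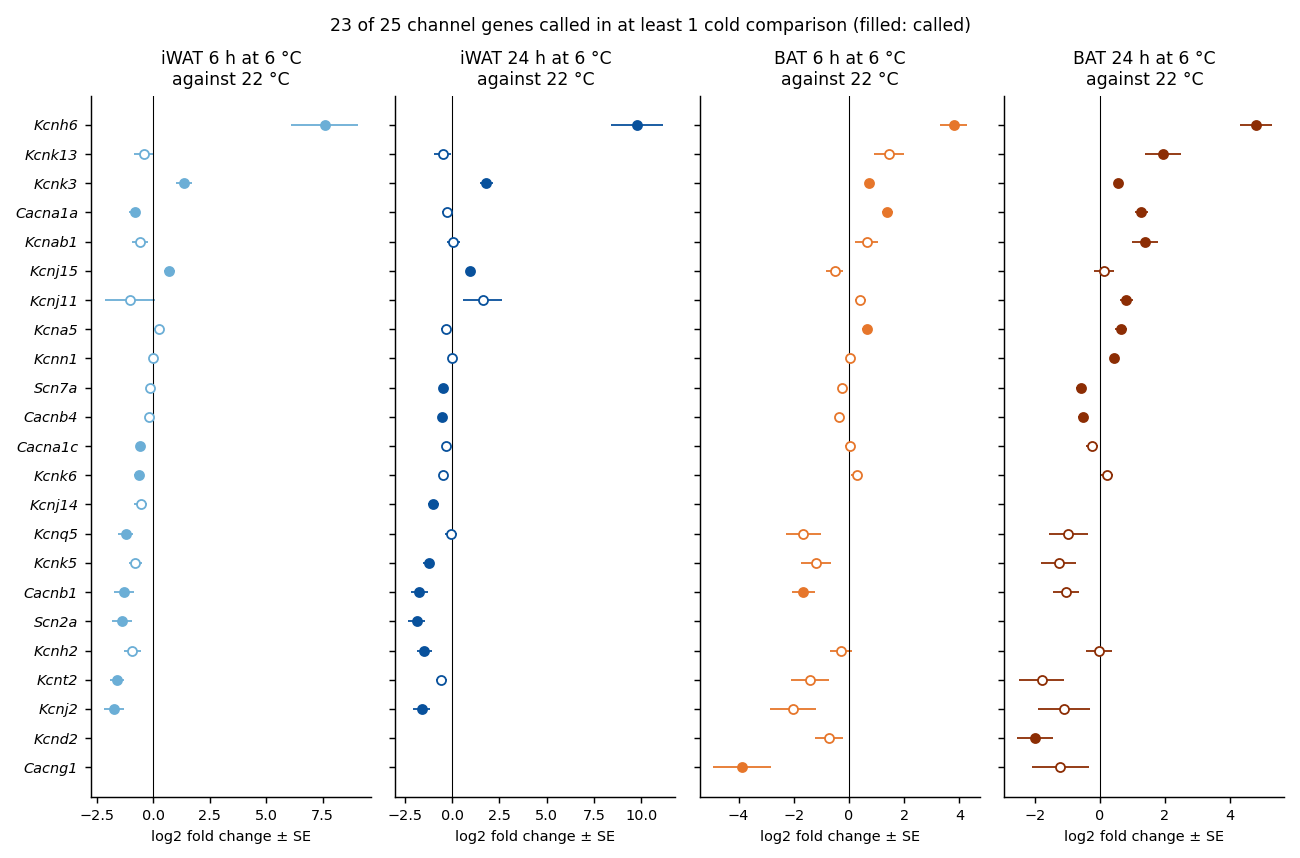
Log2 fold changes against 22 °C with standard errors for 23 of the 25 channel genes called in at least 1 of the 4 cold comparisons, with filled symbols where called and open symbols where tested and not called. Each panel has its own horizontal scale. Kcnh6 and Kcnk3 lie to the right in all 4 panels, and Cacna1a lies left of 0 in iWAT and right of 0 in BAT.

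Among two-pore-domain potassium channels, which carry background potassium current, 7 of 14 were tested in iWAT and 6 in BAT. Kcnk3 encodes an acid-sensitive member of the TASK group, known from brown fat as a channel that opposes depolarisation by noradrenaline. Its level in iWAT at 22 °C was 50.4, 48.7, 80.3, 105 and 54.6 CPM in replicates 1 to 5. After 6 h it was 80.8, 140.1, 70.5, 322 and 269.8 CPM, and after 24 h 283, 199, 204, 239 and 273 CPM. Replicates 4 and 5 of the 6 h group were high while replicates 1 and 3 lay among the 22 °C values, and all 24 h libraries were above all 22 °C libraries. The log2 fold change was 1.36 ± 0.36 (SE) after 6 h (edgeR adjusted p = 0.0157) and 1.81 ± 0.36 after 24 h (adjusted p = 0.00292). The same 2 libraries of the 6 h group had the highest sums of brown adipocyte markers, 5700 and 6065 CPM, and the other 3 had 1125, 2540 and 795 CPM; the part of these cells in the Kcnk3 values was not tested.

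BAT started far above iWAT in Kcnk3, with 668, 647, 569, 475 and 527 CPM at 22 °C. The 6 h libraries held 1015, 875, 956, 1113 and 809 CPM and the 24 h libraries 1046, 805, 835, 816 and 767 CPM, so neither cold group overlapped the 22 °C group. Kcnk3 rose by 0.71 ± 0.11 on the log2 scale after 6 h (edgeR adjusted p = 0.000181) and by 0.55 ± 0.11 after 24 h (adjusted p = 0.00145). In a fit of all 30 libraries, where the larger spread of iWAT is shared, the adjusted p was 0.0675 at 6 h and 0.164 at 24 h. At 22 °C BAT exceeded iWAT by 3.09 ± 0.30 (adjusted p = 6.2e-10). The test of the difference between the depots' responses, BAT minus iWAT, gave −1.26 ± 0.40 at 24 h (adjusted p = 0.0477), so the rise on the log2 scale was larger in iWAT. That call was lost, with adjusted p from 0.0528 to 0.0971, on leaving out any 1 of 15 libraries: 22 °C replicates 1, 2, 3 and 5 and 24 h replicates 2, 3, 4 and 5 of BAT, and 22 °C replicates 1, 2 and 5 and 24 h replicates 1, 2, 4 and 5 of iWAT. The 24 h call was lost as well with no filter on low counts and with upper-quartile factors (edgeR adjusted p = 0.0542 and 0.053). At 6 h the difference was −0.66 ± 0.40 (adjusted p = 0.304).

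The other two-pore channels that were called had lower levels. Kcnk6, a TWIK-group channel, held 6.5, 6.72, 5.97, 6.1 and 5.88 CPM in iWAT at 22 °C and 2.25, 4.29, 4.17, 3.62 and 5.68 CPM after 6 h. The groups did not overlap, and the gene fell by 0.66 ± 0.19 on the log2 scale (edgeR adjusted p = 0.0236). In BAT its change at 6 h was 0.27 ± 0.18 (adjusted p = 0.312), and the difference of the responses was 0.92 ± 0.26 (adjusted p = 0.0267). The iWAT call was lost without 22 °C replicate 1 (0.0557), 22 °C replicate 2 (0.0574) or 6 h replicate 4 (0.0513) and with the muscle markers as a covariate (0.0572), and the difference was lost without 6 h replicate 2 (0.0503) or 3 (0.0566) of BAT.

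Kcnk5, the alkaline-activated relative of Kcnk3, held 3, 2.28, 2.36, 2.52 and 1.42 CPM in iWAT at 22 °C and 0.692, 0.699, 1.79, 1.13 and 0.619 CPM after 24 h. Only 24 h replicate 3 reached into the 22 °C range. Its log2 fold change was −1.23 ± 0.29 (edgeR adjusted p = 0.0071). Kcnk13, a halothane-inhibited channel known from microglia, was near the limit of detection in BAT, with 0.122, 0.0457, 0.126, 0.161 and 0.034 CPM at 22 °C and 0.37, 0.419, 0.238, 0.716 and 0.206 CPM after 24 h. All 24 h values lay above all 22 °C values, and the log2 fold change was 1.94 ± 0.55 (adjusted p = 0.0167). Kcnk13 passed the BAT filter of 0.3 CPM through 5 libraries, and no group was over it in all 5. No 22 °C library reached that level, so the gene entered the BAT test through cold libraries only. Leaving out 24 h replicate 4 gave 1.58 and ended the call (0.0562). The response of Kcnk13 at 24 h differed between the depots by 2.44 ± 0.72 (adjusted p = 0.0337). Dropping 22 °C replicate 2 or 5 or 24 h replicate 4 of BAT ended that difference, as did dropping 22 °C replicate 1 or 2 or 24 h replicate 1, 2 or 4 of iWAT (adjusted p 0.0533 to 0.086). A replicate block (0.0531) ended it as well, as did limma on FPKM with either pseudocount (0.0581 and 0.0998).

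The voltage-gated potassium channels are the largest family, with 40 genes, of which 6 had no counts, 18 were tested in iWAT and 22 in BAT. In iWAT 1 rose and 1 fell at 6 h, and 1 rose and 2 fell at 24 h. In BAT 2 rose and none fell at 6 h, and 2 rose and 1 fell at 24 h. Kcnh6, a pore-forming subunit of the ether-a-go-go related (ERG) group, was the riser with the largest fold change in each of the 4 comparisons. It had no count in any of the 5 iWAT libraries at 22 °C. After 6 h the iWAT values were 0.0634, 0.0875, 0.193, 1.51 and 1.17 CPM, and after 24 h 2.28, 1.19, 2.15, 2.97 and 5.04 CPM. Replicates 4 and 5 of the 6 h group, high for Kcnk3, were again the highest of their group.

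Against the floor that a count of 0 allows (3 counts over the whole 22 °C group, or 0.0133 CPM), mean Kcnh6 in iWAT was at least 45.2-fold higher after 6 h, from 101 counts, and at least 204-fold higher after 24 h, from 544 counts. Both differences were called by edgeR, with adjusted p = 0.00672 and 0.000897. The gene passed the filter on low counts through 7 iWAT libraries, and only the 24 h group was over it in all 5. In limma on log2(FPKM + 1) the 6 h call was lost (adjusted p = 0.2).

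In BAT Kcnh6 held 0.488, 1.14, 0.284, 0.0804 and 0.17 CPM at 22 °C. The 6 h libraries had 2.32, 5.05, 8.93, 7.75 and 5.25 CPM and the 24 h libraries 9.61, 10.8, 8.87, 10.9 and 17.9 CPM. No cold library overlapped the 22 °C group, and 24 h replicate 5 stood above the other 4. Kcnh6 rose by 3.80 ± 0.48 on the log2 scale after 6 h (edgeR adjusted p = 4.23e-05) and by 4.78 ± 0.49 after 24 h (adjusted p = 5.39e-06). From 6 h to 24 h the change was 0.98 ± 0.39 (adjusted p = 0.102). Per length, Kcnh6 reached 2.79 ± 0.911 FPKM in BAT after 24 h, the eighth highest of the channel genes there.

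**Figure D3:**
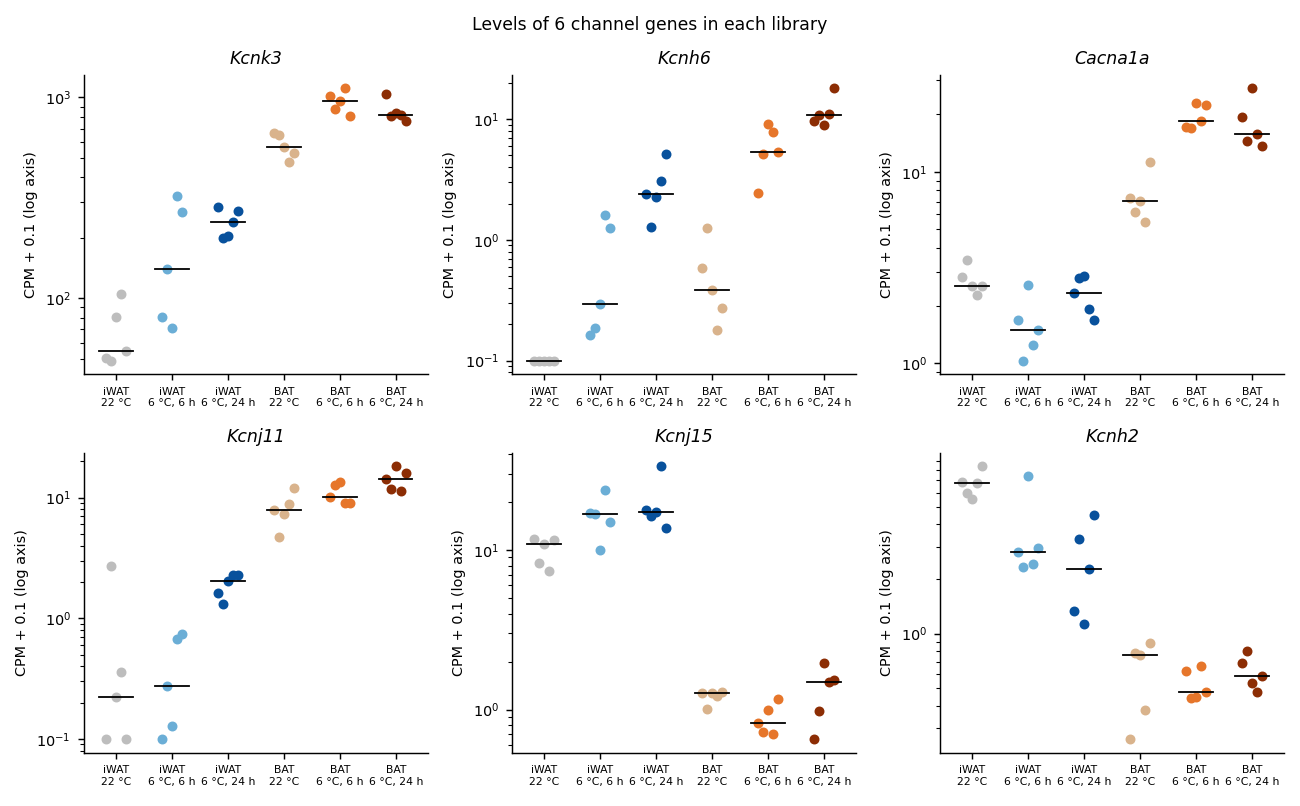
CPM plus 0.1 on a log axis for 6 channel genes, 1 point per library and a line at the median of each group of 5. Kcnh6 lies at the floor in all iWAT libraries at 22 °C and between 8.87 and 17.9 CPM in BAT after 24 h, and Cacna1a is raised by cold in BAT, where no cold library overlaps the 22 °C group.

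The promoter windows of 3 genes that rose in the cold are shown, since the genes differ in the depot where the rise was called: Kcnh6 in both, Kcnj15 in iWAT and Kcna5 in BAT. Each window runs from 250 bases before to 50 bases after the RefSeq gene start on build GRCm38.p6, reads 5′ to 3′ on the gene's strand, and has any match to TGACG (the half-site of the cAMP response element) or AGGTCA (the nuclear receptor half-site) on either strand in capitals. The windows are chr11:106007898-106008197 on the plus strand for Kcnh6, chr16:95257308-95257607 on the plus strand for Kcnj15 and chr6:126535506-126535805 on the minus strand for Kcna5.
Kcnh6: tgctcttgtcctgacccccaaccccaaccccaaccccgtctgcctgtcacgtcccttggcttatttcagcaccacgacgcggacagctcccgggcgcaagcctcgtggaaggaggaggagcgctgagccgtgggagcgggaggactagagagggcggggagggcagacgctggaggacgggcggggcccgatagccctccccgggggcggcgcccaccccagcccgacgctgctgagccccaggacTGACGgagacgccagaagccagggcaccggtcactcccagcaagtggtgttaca
Kcnj15: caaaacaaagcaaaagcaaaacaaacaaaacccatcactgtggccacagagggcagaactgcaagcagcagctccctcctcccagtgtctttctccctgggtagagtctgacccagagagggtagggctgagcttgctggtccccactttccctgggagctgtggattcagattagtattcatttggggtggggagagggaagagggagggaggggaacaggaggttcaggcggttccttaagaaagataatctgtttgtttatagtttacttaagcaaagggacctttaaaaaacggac
Kcna5: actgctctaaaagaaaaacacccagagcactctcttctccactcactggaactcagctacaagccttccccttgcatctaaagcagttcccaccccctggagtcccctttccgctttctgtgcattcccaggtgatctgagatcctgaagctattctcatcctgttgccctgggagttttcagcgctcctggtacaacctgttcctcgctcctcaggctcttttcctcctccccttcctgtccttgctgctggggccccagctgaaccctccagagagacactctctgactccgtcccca

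The Kcnh6 window was the richest of the 3 in G and C (69.3%, beside 49.7% for Kcnj15 and 55% for Kcna5) and held 1 TGACG match. The other two windows held neither TGACG nor AGGTCA, which says only that these letters are not in the windows. Of the 134 genes, 98 had an entry in the table, with 134 windows among them. TGACG was in 17.9% of the channel windows and in 20.8% of all 32851 windows, AGGTCA in 7.46% and 16.3%, its extended form AAGGTCA in 4.48% and 4.72%, and the E-box CACGTG in 5.22% and 7.15%. The full element TGACGTCA, which contains TGACG, was in 0 of the 134 channel windows and in 1.79% of all windows.

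Kcna5, a delayed rectifier of the Shaker group, was the other voltage-gated channel that rose in BAT. It held 6.87, 5.53, 8.76, 11.4 and 8.92 CPM at 22 °C, 13, 11.2, 14.5, 14.9 and 11.9 CPM after 6 h, and 8.23, 14.1, 15.3, 15.3 and 12.7 CPM after 24 h. Of the 6 h libraries only replicate 2 lay under the highest 22 °C value, and of the 24 h libraries only replicate 1 did. Its log2 fold change was 0.64 ± 0.19 at both times (edgeR adjusted p = 0.02 and 0.0189). Both calls were lost without 22 °C replicate 1 (0.0514 and 0.0502) and in the fit of all 30 libraries (0.0514 and 0.0531), and the 6 h call without 6 h replicate 3 (0.0567). In iWAT its changes were 0.23 ± 0.26 and −0.34 ± 0.26, neither called.

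Kcnd2, a channel of transient A-type current, was low and fell in BAT. Its values were 1.02, 1.64, 0.536, 0.763 and 0.476 CPM at 22 °C and 0.185, 0.0466, 0.119, 0.579 and 0.137 CPM after 24 h, with 24 h replicate 4 inside the 22 °C range. The log2 fold change was −1.99 ± 0.55 (edgeR adjusted p = 0.0152), and in the fit of all 30 libraries the adjusted p was 0.107. Only the 22 °C group was over the filter level in all 5 libraries.

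Kcnh2, the ERG channel of cardiac repolarisation and the closest kind to Kcnh6, fell in iWAT. It held 6.72, 5.89, 5.41, 6.66 and 8.26 CPM at 22 °C, 2.73, 2.25, 7.32, 2.33 and 2.88 CPM after 6 h, and 1.24, 3.24, 1.03, 2.18 and 4.39 CPM after 24 h. The 24 h values were all under the 22 °C values, while 6 h replicate 3 lay within them. The change was −1.47 ± 0.38 after 24 h (edgeR adjusted p = 0.0125) and −0.93 ± 0.38 after 6 h (adjusted p = 0.0801). Thus within the ERG group 1 member rose and another fell in iWAT at 24 h. Kcnh2 in BAT was at most 0.783 CPM in any library.

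Of the M-current family, Kcnq5 spanned 0.691 to 1.03 CPM at 22 °C and 0.223 to 0.583 CPM after 6 h in iWAT, without overlap, and changed by −1.23 ± 0.35 (edgeR adjusted p = 0.0212). The Kcnq5 call was lost without 22 °C replicate 1 (0.0534), without 6 h replicate 5 (0.0566) or in the fit of all 30 libraries (0.0934). Kcnq1, the cardiac and epithelial member, lay between 0.179 and 1.82 CPM in all libraries and was not called in any cold comparison. Kcna3, a channel known from lymphocytes, had counts in 1 library of 30, at 0.103 CPM.

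Of 15 inward rectifiers, 5 were tested in each depot. Kcnj15, a Kir channel known from kidney epithelium, was the iWAT riser of the family. Its values were 11.6, 8.22, 10.9, 7.26 and 11.5 CPM at 22 °C, 16.9, 16.8, 9.97, 23.8 and 15 CPM after 6 h, and 17.6, 16.2, 17.2, 33.4 and 13.6 CPM after 24 h. All 24 h libraries and 4 of 5 libraries at 6 h exceeded every 22 °C library. Kcnj15 rose by 0.97 ± 0.24 on the log2 scale after 24 h (edgeR adjusted p = 0.0105) and by 0.71 ± 0.24 after 6 h (adjusted p = 0.0464). The 6 h call was lost, with adjusted p from 0.0542 to 0.121, on leaving out any one of the 22 °C libraries or 6 h replicate 1, 2, 4 or 5. The replicate block (0.0686), the muscle covariate (0.113), upper-quartile scaling (0.0678) and limma on FPKM (0.143 and 0.167) each ended it too.

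In BAT Kcnj15 was between 0.555 and 1.86 CPM in all 15 libraries, and BAT lay under iWAT at 22 °C by −3.14 ± 0.28 log2 units (edgeR adjusted p = 7.29e-11). The difference of its 6 h responses was −1.24 ± 0.39 (adjusted p = 0.0412). It was lost, with adjusted p from 0.0543 to 0.0788, without BAT 22 °C replicate 1, 3, 4 or 5, BAT 6 h replicate 2, 3 or 4, iWAT 22 °C replicate 2 or iWAT 6 h replicate 1, 2 or 4. It was lost under 5 other settings as well, with adjusted p of 0.085 and 0.148 in limma on FPKM, 0.0501 with no filter, 0.0574 with the muscle covariate and 0.0552 with upper-quartile scaling.

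Kcnj11 and Kcnj8 encode the pores of ATP-sensitive potassium channels, the first best known from beta cells and muscle and the second from vascular smooth muscle and pericytes. Kcnj11 in BAT was 7.76, 4.61, 7.18, 8.68 and 11.8 CPM at 22 °C, 9.97, 12.7, 13.3, 8.83 and 8.94 CPM after 6 h, and 14.1, 11.7, 18, 11.2 and 15.9 CPM after 24 h. At 24 h 3 of the 5 libraries were above the whole 22 °C group, and 2 lay just under its highest value. The change at 24 h was 0.80 ± 0.20 (edgeR adjusted p = 0.00855), and in the fit of all 30 libraries its adjusted p was 0.367. In iWAT the 22 °C values were 0, 2.62, 0.122, 0.255 and 0 CPM, with the muscle-rich replicate 2 the highest, and the 24 h values were 1.53, 1.21, 1.92, 2.18 and 2.18 CPM. That change was not called (1.61 ± 1.02, adjusted p = 0.266), but all 24 h libraries exceeded the 22 °C libraries other than replicate 2. It was called without that library (4.34, edgeR adjusted p = 0.00898), with the muscle covariate (4.23, 0.00766) and in limma on log2(FPKM + 0.1) and log2(FPKM + 1) (1.75 and 0.41, adjusted p = 0.0234 and 0.0486). Its adjusted p under the other alternatives ran from 0.0752 to 0.417.

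Kcnj8 differed by depot and was not called in the cold. Its range was 9.81 to 17.1 CPM in iWAT and 31.2 to 40.2 CPM in BAT at 22 °C, a difference of 1.32 ± 0.12 (edgeR adjusted p = 1.13e-10). The 4 cold changes lay between −0.17 ± 0.09 and −0.03 ± 0.14. Kcnj14, a Kir channel of motor neurons, ran from 5.02 to 7.13 CPM in iWAT at 22 °C and from 1.45 to 5.06 CPM after 24 h. The ranges met at the highest 24 h library, and the change was −0.99 ± 0.28 (adjusted p = 0.0205), lost without 22 °C replicate 1 (0.0546), 24 h replicate 1 (0.0539) or in the fit of all 30 libraries (0.0626). In BAT it was at most 0.613 CPM.

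Kcnj2, the classical strong inward rectifier of muscle and vessels, was 2.14, 4.81, 2.64, 1.02 and 2.87 CPM in iWAT at 22 °C. The cold libraries held 1.39, 0.992, 0.718, 0.753 and 0.273 CPM after 6 h and 1.67, 0.676, 0.94, 0.34 and 0.916 CPM after 24 h. Replicate 2, the muscle-rich library, was the highest at 22 °C, and replicate 4 lay among the cold values. Kcnj2 changed by −1.74 ± 0.46 after 6 h (edgeR adjusted p = 0.0161) and by −1.60 ± 0.45 after 24 h (adjusted p = 0.0192). Without 22 °C replicate 2 the changes were −1.43 (adjusted p = 0.0519) and −1.28 (adjusted p = 0.0624), and in the fit of all 30 libraries the adjusted p were 0.0758 and 0.102. With the muscle covariate the 6 h adjusted p was 0.0507.

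Among the 8 calcium- or sodium-activated potassium channels, 2 were called. Kcnt2, a sodium-activated channel of the Slo group, held 1.33, 1.05, 1.12, 1.11 and 0.793 CPM in iWAT at 22 °C and 0.222, 0.583, 0.414, 0.287 and 0.298 CPM after 6 h. After 24 h it held 0.808, 0.653, 0.425, 0.839 and 0.943 CPM. The 6 h group lay under the 22 °C group without overlap, whereas the 24 h group overlapped both. Kcnt2 changed by −1.59 ± 0.31 at 6 h (edgeR adjusted p = 0.00432) and by −0.58 ± 0.30 at 24 h (adjusted p = 0.167). The 24 h against 6 h comparison gave 1.02 ± 0.32 (adjusted p = 0.295).

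Kcnn1, a small-conductance calcium-activated channel, was flat in iWAT and rose late in BAT. The BAT values were 10.4, 10.3, 8.98, 9.52 and 8.98 CPM at 22 °C, 9.05, 10.8, 10.3, 8.91 and 11.2 CPM after 6 h, and 16.7, 13, 13.7, 10.3 and 12.4 CPM after 24 h. At 24 h 4 of the 5 libraries exceeded every other BAT library. The change was 0.44 ± 0.11 against 22 °C (edgeR adjusted p = 0.00991) and 0.39 ± 0.11 against 6 h (adjusted p = 0.0314). The second call needed each of 4 libraries, since its adjusted p was 0.0881 and 0.0602 without replicate 1 or 3 of the 24 h group, and 0.0571 and 0.0749 without replicate 1 or 4 of the 6 h group. In iWAT its changes were −0.03 ± 0.16 and 0.00 ± 0.16. The large-conductance channel Kcnma1 and the intermediate-conductance channel Kcnn4 were not called in the cold.

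The auxiliary subunits of potassium channels numbered 17, with 10 tested in iWAT and 5 in BAT. None was called in iWAT, and Kcnab1, a cytoplasmic beta subunit of Shaker-type channels, was called in BAT. It held 0.447, 0.183, 0.221, 0.161 and 0.374 CPM at 22 °C and 0.431, 0.419, 1.31, 0.647 and 0.893 CPM after 24 h. At 24 h 3 libraries were above the 22 °C group and 2 lay just under its highest value. The change was 1.38 ± 0.41 (edgeR adjusted p = 0.0208), lost without 22 °C replicate 2 (0.0511), 3 (0.0541) or 4 (0.0547), without 24 h replicate 3 (0.0691), and in limma on FPKM (0.0935 and 0.17).

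The calcium channel alpha subunits gave the one response of opposite direction in the depots. Cacna1a encodes the pore of the P/Q-type channel, known from presynaptic terminals. In BAT it was 7.19, 6.07, 6.93, 5.38 and 11.2 CPM at 22 °C, 17.1, 16.8, 22.7, 18.3 and 22.2 CPM after 6 h, and 19.3, 14.3, 27.3, 15.6 and 13.5 CPM after 24 h. Every cold BAT library exceeded every 22 °C library. Its change in BAT was 1.38 ± 0.21 after 6 h (edgeR adjusted p = 0.000154) and 1.27 ± 0.21 after 24 h (adjusted p = 0.000295).

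In iWAT Cacna1a was 2.74, 3.38, 2.44, 2.18 and 2.42 CPM at 22 °C, 1.58, 0.933, 2.46, 1.15 and 1.39 CPM after 6 h, and 2.22, 2.68, 2.75, 1.81 and 1.59 CPM after 24 h. All 6 h libraries but replicate 3 lay under the 22 °C group. The iWAT change was −0.83 ± 0.25 at 6 h (edgeR adjusted p = 0.0296) and −0.27 ± 0.25 at 24 h (adjusted p = 0.461). With adjusted p of 0.0651 to 0.0804, the 6 h call was lost on dropping replicate 1 or 2 of the 22 °C group or replicate 2, 4 or 5 of the 6 h group, and at 0.0793 with the muscle covariate. The difference of the responses was 2.20 ± 0.32 at 6 h (adjusted p = 0.000105) and 1.54 ± 0.32 at 24 h (adjusted p = 0.00379), and neither call was lost under any alternative or on leaving out any library. Sums of the Schwann cell and nerve markers in BAT were 129 to 148 CPM at 22 °C, 109 to 152 CPM after 6 h and 121 to 171 CPM after 24 h. The part of nerve in the Cacna1a values was not tested.

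Cacna1c, the L-type pore of smooth muscle and heart, was 8.04, 9.55, 6.5, 6.92 and 7.87 CPM in iWAT at 22 °C and 3.96, 5.54, 6.65, 4.41 and 5.23 CPM after 6 h. Only replicate 3 at 6 h reached the 22 °C range. The change was −0.61 ± 0.18 (edgeR adjusted p = 0.0233), lost without replicate 1 (0.0546) or 2 (0.0678) of the 22 °C group, without replicate 1 (0.0526) or 4 (0.0538) of the 6 h group, and with the muscle covariate (0.0671). The smooth muscle and pericyte marker sum in iWAT was 678 to 810 CPM at 22 °C, 520 to 698 CPM after 6 h and 417 to 639 CPM after 24 h. Of its 10 markers, 2 were called lower and 0 higher at 6 h, and 3 lower and 1 higher at 24 h. Cacna1c was not called in iWAT at 24 h, and the part of these cells in its values was not tested. The L-type relative Cacna1d and the T-type channel Cacna1h were low (at most 1.55 CPM) and were not called in the cold.

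The calcium channel beta subunit Cacnb4 fell at 24 h in both depots. It was 11.2, 9.71, 12, 12.8 and 10.8 CPM in iWAT at 22 °C and 6.78, 7.81, 8.84, 6.17 and 9.1 CPM after 24 h. In BAT it was 7.64, 7.86, 7.75, 7.11 and 5.96 CPM at 22 °C and 5.27, 3.63, 5.43, 5.01 and 6.08 CPM after 24 h. The iWAT groups did not overlap, and in BAT only the lowest 22 °C and the highest 24 h library crossed. The changes were −0.56 ± 0.14 (edgeR adjusted p = 0.0104) and −0.53 ± 0.15 (adjusted p = 0.0201).

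The sodium channel genes included the leading iWAT member. Scn7a encodes Nax, a sodium-level sensor of glia and Schwann cells that is not opened by voltage. It held 194, 154, 183, 175 and 198 CPM in iWAT at 22 °C, 192, 158, 219, 118 and 136 CPM after 6 h, and 109, 133, 137, 139 and 139 CPM after 24 h. The 24 h group lay under the 22 °C group without overlap, and the 6 h group spread across both. In BAT it was 23.9, 23.3, 30.3, 29.1 and 21.3 CPM at 22 °C and 17.3, 16.7, 20.5, 13 and 18.2 CPM after 24 h, again without overlap. Scn7a changed by −0.48 ± 0.14 in iWAT (edgeR adjusted p = 0.0266) and by −0.59 ± 0.15 in BAT (adjusted p = 0.00983) at 24 h.

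The iWAT call of Scn7a was lost without replicate 1 (0.0627) or 5 (0.0589) of the 22 °C group or replicate 1 (0.0711) or 2 (0.0514) of the 24 h group. Between depots at 22 °C Scn7a differed by −2.82 ± 0.16 (edgeR adjusted p = 3.69e-14), lower in BAT, the smallest adjusted p among the channel genes. Of the 8 Schwann and nerve markers tested, 7 were called lower and 1 higher in BAT. The sum of their list at 22 °C ranged from 99 to 317 CPM in iWAT and from 129 to 148 CPM in BAT. The part of these cells in the Scn7a values was not tested.

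Scn2a, an alpha subunit known from neurons, held 1.82, 1.83, 1.59, 1.05 and 0.712 CPM in iWAT at 22 °C, 0.697, 0.379, 0.883, 0.251 and 0.496 CPM after 6 h, and 0.433, 0.769, 0.291, 0.317 and 0.108 CPM after 24 h. Its 22 °C replicate 5 lay within the cold ranges, and the other 4 lay above them. The changes were −1.38 ± 0.44 (edgeR adjusted p = 0.0343) and −1.88 ± 0.45 (adjusted p = 0.00802). The 6 h call ended, at adjusted p of 0.0639 to 0.0846, on dropping replicate 1, 2 or 3 of the 22 °C group or replicate 2, 4 or 5 of the 6 h group, and at 0.0769 with the muscle covariate. In iWAT only the 22 °C group was over the filter level in all 5 libraries.

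Several members known as parts of the skeletal muscle excitation machinery followed the muscle markers library by library. Cacna1s, the voltage sensor of muscle contraction, held 0, 23.7, 0, 0 and 0.0407 CPM in iWAT at 22 °C, where replicate 2 is the muscle-rich library. In BAT it held 21.2, 1.96, 18.6, 52.4 and 85.2 CPM at 22 °C, 0, 18.7, 3.35, 0.402 and 4.64 CPM after 6 h, and 0.0308, 0, 12.4, 7.26 and 42.1 CPM after 24 h. The corresponding muscle sums in BAT were 1888, 242, 1854, 5062 and 8119 CPM at 22 °C, 8.97, 1438, 352, 26.6 and 367 CPM after 6 h, and 4.68, 2.19, 1242, 752 and 4126 CPM after 24 h. Within each BAT group the order of the libraries by Cacna1s was their order by muscle markers. Scn4a, the muscle sodium channel, and Cacng1, the muscle gamma subunit, showed the same libraries high, with 9.99 and 3.35 CPM in iWAT 22 °C replicate 2 against at most 0.225 and 0.0203 CPM in the rest of that group.

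Of these, Cacng1 was called in BAT at 6 h (−3.88 ± 1.06, edgeR adjusted p = 0.0144), from 1.63, 0.457, 1.51, 3.82 and 4.36 CPM at 22 °C to 0, 0.481, 0.069, 0 and 0.202 CPM. The groups crossed at 22 °C replicate 2 and 6 h replicate 2, the muscle-poorest and muscle-richest libraries of their groups, and Cacng1 passed the filter through 9 BAT libraries. Cacnb1, the beta subunit of the muscle L-type channel that other cells express too, held 1.65, 6.38, 1.69, 1.56 and 1.59 CPM in iWAT at 22 °C and 1.27, 1.17, 1.05, 0.466 and 1.29 CPM after 6 h. After 24 h it held 0.577, 0.373, 1.23, 1.02 and 0.646 CPM. Both cold groups lay under the 22 °C group even apart from replicate 2, and the changes were −1.31 ± 0.44 (adjusted p = 0.044) and −1.74 ± 0.45 (adjusted p = 0.0123).

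The 6 h call of Cacnb1 was lost without any one of 22 °C replicates 1 and 2 and the 5 libraries at 6 h (adjusted p from 0.0567 to 0.203); without the muscle-rich replicate 2 the change was −0.64. It was lost with no filter (0.0536), the replicate block (0.0946) and the muscle covariate (0.199). In BAT Cacnb1 changed by −1.66 ± 0.41 at 6 h (edgeR adjusted p = 0.00816), with 6.01, 3.2, 7.03, 10.8 and 12.3 CPM at 22 °C and 1.56, 4.43, 2.07, 1.97 and 2.45 CPM after 6 h. The replicates that crossed were again 22 °C replicate 2 and 6 h replicate 2. The part of muscle fibres in the values of Cacng1 and Cacnb1 was not tested beyond the muscle covariate.

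**Figure D4:**
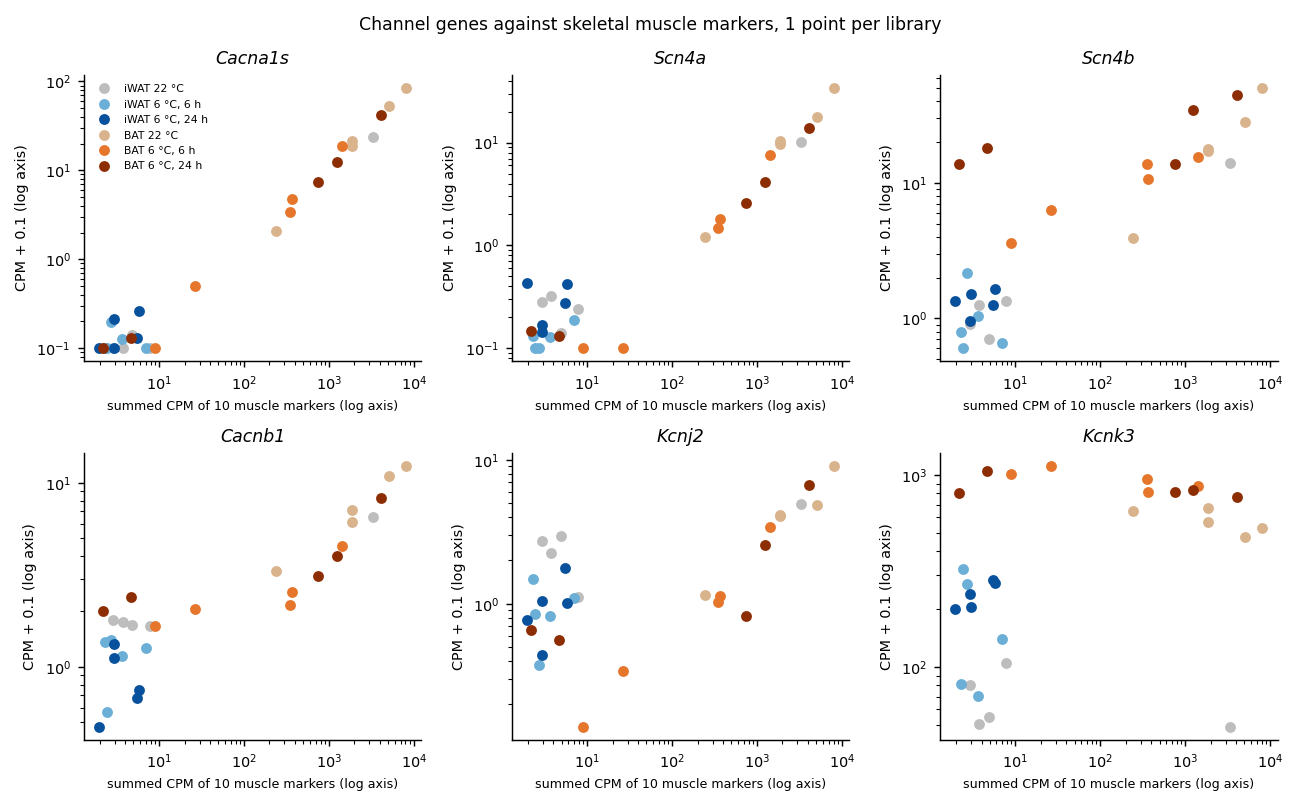
CPM plus 0.1 of 6 channel genes against the summed CPM of 10 skeletal muscle markers, 1 point per library, both axes logarithmic. Cacna1s and Scn4a rise with the marker sum and are near the floor in libraries with sums under 10 CPM, Cacnb1 and Kcnj2 rise at the muscle-rich end, and Kcnk3 in the muscle-poorest BAT libraries (805 and 1046 CPM after 24 h) lies within the range of the other BAT libraries.

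Scn4b, an auxiliary subunit of muscle, heart and neurons, did not follow the muscle markers alone. In BAT it was 17.7, 3.79, 17, 28.2 and 50.6 CPM at 22 °C, 3.48, 15.5, 13.8, 6.18 and 10.6 CPM after 6 h, and 18.1, 13.7, 34.5, 13.6 and 44.8 CPM after 24 h. The 24 h replicates 1 and 2, with muscle sums of 4.68 and 2.19 CPM, still held 18.1 and 13.7 CPM, whereas 6 h replicate 1 with a sum of 8.97 CPM held 3.48 CPM. The changes against 22 °C were −1.26 ± 0.53 (edgeR adjusted p = 0.0986) and 0.07 ± 0.52 (adjusted p = 0.944).

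The 2 depots shared 5 called genes at 6 h, which is 41.7% of the 12 in iWAT and 71.4% of the 7 in BAT, beside 30.8% and 32.7% for all genes called at 6 h. Among them, Kcnh6 and Kcnk3 rose and Cacnb1 fell in both, and Cacna1a went in opposite directions. At 24 h they shared 4, which is 30.8% of 13 and 36.4% of 11 (37.7% and 39.1% for all genes), namely Kcnh6, Kcnk3, Cacnb4 and Scn7a, each in 1 direction. The difference of the responses was called for 3 channel genes at 6 h (Cacna1a, Kcnk6 and Kcnj15) beside 9.4% of all genes tested, 3.38% with a higher and 6.03% with a lower response in BAT than in iWAT. At 24 h it was called for 3 (Cacna1a, Kcnk13 and Kcnk3) beside 7.81% of all genes, 2.96% higher and 4.85% lower. In each case 2 of the 3 were higher and 1 lower.

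The depots themselves differed in most channel genes at 22 °C. BAT against iWAT gave 20 higher and 33 lower of 77, which is 68.8% beside 66.9% of all genes tested (32.4% higher and 34.5% lower). The genes higher in BAT with mean levels of at least 0.5 CPM and the largest fold changes were Kcnj11 (3.82 ± 0.71), Kcnd2 (3.42 ± 0.93), Kcnk3 (3.09 ± 0.30), Scn4a (2.81 ± 1.20), Scn4b (2.74 ± 0.68) and Kcna7 (2.73 ± 1.06). Of these Scn4a, Scn4b and the muscle and heart channel Kcna7 were highest in the muscle-rich libraries. With the muscle covariate Scn4a turned to −0.82 (adjusted p = 0.223) and Kcna7 gave 1.09 (adjusted p = 0.285). Both calls were lost with DESeq2 (0.0722 and 0.0595) and with only the 22 °C groups fitted (0.063 and 0.0866), and that of Scn4a with upper-quartile factors (0.0545). Kcnh6, at 0.0804 to 1.14 CPM in BAT and at 0 in iWAT, was called too (adjusted p = 0.000225), but not in limma on log2(FPKM + 1) (0.442). Those higher in iWAT were led by Kcnj14 (−4.31 ± 0.48), the R-type calcium channel Cacna1e (−4.30 ± 0.98), the two-pore channel Kcnk1 (−4.16 ± 0.95), Kcnh2 (−3.66 ± 0.41), the regulatory subunit Kcne5 (−3.44 ± 0.65) and Kcnk13 (−3.15 ± 0.55).

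Of the more abundant members, Kcnk2 (the mechanosensitive TREK-group channel, −2.95 ± 0.22), Cacng7 (−2.56 ± 0.20) and Kcns3 (−1.43 ± 0.13) were lower in BAT. Cacna1a (1.48 ± 0.23) and Kcnn1 (1.24 ± 0.13) were higher. By family, 5 of 7 tested two-pore channels and 6 of 10 potassium auxiliary subunits were lower in BAT, while 2 and 1 were higher. The voltage-gated potassium channels were split, with 8 higher and 9 lower of 23. Progenitor and macrophage markers, 10 of 10 in each list, were lower in BAT as well, and their part in these differences was not tested.

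The calls of Kcna7, Scn4a, Kcnma1, Kcnq5 and Kcnt2 between depots were lost on leaving out single 22 °C libraries. For Kcna7 these were BAT replicate 5 and iWAT replicates 1, 3, 4 and 5 (adjusted p to 0.133), and for Scn4a BAT replicates 4 and 5 and iWAT replicates 1, 3, 4 and 5 (to 0.124). For Kcnma1 they were BAT replicates 4 and 5 and iWAT replicates 1 and 4 (to 0.0826), for Kcnq5 BAT replicates 4 and 5 and iWAT replicate 3 (to 0.085), and for Kcnt2 BAT replicates 3 and 5 and iWAT replicates 1 and 3 (to 0.0822).

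**Figure D5:**
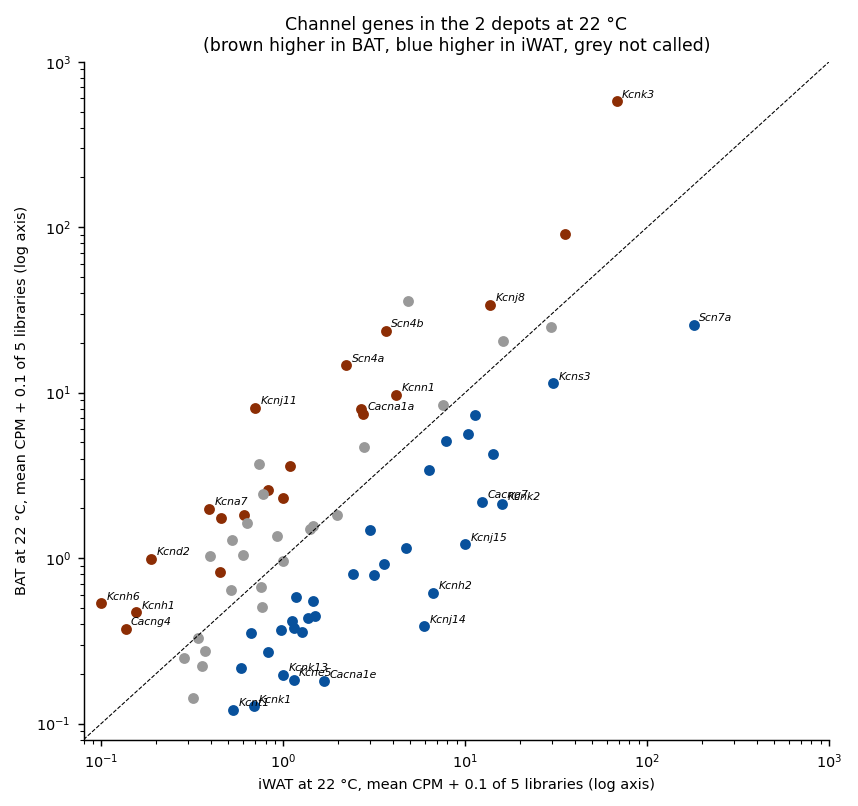
Mean CPM plus 0.1 over 5 libraries in BAT against iWAT at 22 °C for the 77 channel genes tested, on log axes with a dashed line of equality. The 20 genes called higher in BAT lie above the line, with Kcnk3 at the top right, and the 33 called lower lie below it, with Scn7a farthest to the right.

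Related ion transport genes outside the channel families were counted in 3 lists, to be read beside 12.9% and 12.8% of all genes called higher and 10.1% lower in iWAT at 6 h and 24 h, and 12.5% and 12.8% higher and 10.2% and 10.4% lower in BAT. Of 12 sodium pump subunits and sulfonylurea receptors, 11 were tested; 1 rose in iWAT at 6 h, 3 rose and 1 fell in iWAT at 24 h, 2 rose and 1 fell in BAT at 6 h, and 4 rose and 1 fell in BAT at 24 h. The pump beta subunit Atp1b1 rose in BAT by 1.16 ± 0.15 and 1.35 ± 0.15 (edgeR adjusted p = 4.69e-05 and 1.24e-05) and in iWAT at 24 h by 2.43 ± 0.37 (adjusted p = 0.000731), while Atp1b2 changed in BAT by −0.93 ± 0.21 and −0.60 ± 0.20 (adjusted p = 0.00361 and 0.0429). Of 25 genes of calcium stores and exchange, 2 rose and 6 fell of 20 in iWAT at 6 h and 4 rose and 5 fell at 24 h; of 22 in BAT, 1 rose and 4 fell, then 3 rose and 2 fell.

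Atp2a2, the calcium pump of the endoplasmic reticulum, rose in all 4 comparisons, by 0.69 ± 0.17 and 0.77 ± 0.17 in iWAT (edgeR adjusted p = 0.012 and 0.00492) and by 0.44 ± 0.07 and 0.31 ± 0.07 in BAT (adjusted p = 0.000242 and 0.00324). The muscle genes Ryr1 and Casq1 were among those that fell in iWAT, where their level rested on the muscle-rich library. Of 27 other cation channels, 2 rose and 4 fell of 23 in iWAT at 6 h, 3 rose and 2 fell at 24 h, and of 21 in BAT 2 rose and 3 fell, then 3 rose and 3 fell. The endolysosomal two-pore channel Tpcn2 rose in every cold comparison, by 0.65 to 1.16 log2 units, and the pacemaker channel Hcn2 rose at 24 h in BAT (1.92 ± 0.27, adjusted p = 9.48e-05) and in iWAT (1.83 ± 0.46, adjusted p = 0.0105).

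The labels do not state whether reads were counted by strand, so reads of a gene and an overlapping antisense transcript cannot be told apart. Of 62 named or called members, 61 were found by symbol in the GENCODE annotation of the earlier build GRCm38, and 32 had an annotated gene on the opposite strand within their span. These include Kcnk3 (Gm9899), Cacna1a (Gm16183), Kcnh2 (Gm15589), Kcnj15 (Gm31641 and Gm49643), Kcnn1 (A230052G05Rik) and Kcnk13 (Gm23291). No annotated gene lay within the spans of Kcnh6, Kcna5, Kcnj11, Kcnj8, Kcnk6, Scn2a or Scn7a.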

How the data were processed

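The deposited table holds gene counts and FPKM for 30 polyA libraries (NEBNext Ultra II RNA kit, per the labels). HISAT2, HTSeq and build GRCm39 are named in the submitters' processing notes, without versions. The counts were deposited unnormalised by the authors, and the deposited FPKM values are those counts divided by the library's table total and by gene length, a relation tested on the file. Counts were tested with edgeR 4.0.16 in R 4.3.3 (filterByExpr with a minimum count of 10, TMM factors, quasi-likelihood F test, Benjamini-Hochberg adjustment over all genes). Each depot's 15 libraries were fitted together for the comparisons within it, and all 30 for BAT against iWAT and for the differences of responses. Standard errors are the log2 fold change divided by the square root of F. CPM used TMM factors over 30 libraries. Counting error is smallest for abundant genes. On simulated counts the fits recovered 76.5% (iWAT) and 88% (BAT) of genes changed by 1 log2 unit in the 24 h comparison, with 14 and 6 false calls among 187 and 193. The changed genes were drawn only from those above a floor on the mean count. These rates therefore do not cover the members with low counts.

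Members, lists and naming rule were chosen with earlier results of these data known. Values by library are given for up to 8 called members per cold comparison and 6 per direction between depots, by size of change with a mean of at least 0.5 CPM, for members called between times or between responses, and for a fixed set; others that were called are named as such, and some members are counted but not reported here by name. Alternatives were DESeq2 1.42.0, other factors, no filter, limma 3.58.1 on log2(FPKM + 1) and log2(FPKM + 0.1), a single fit, a replicate block, each library left out and, added after seeing the data, the muscle marker score as a covariate. Replicates of a group differed beyond sampling noise (chi-square per degree of freedom 14 to 181 over 60 pairs). Gene IDs matched the reference for all 134 members, with the same symbol for 133.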

Additional observations from a re-analysis of the deposited data

Results flagged for a closer look

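In groups of 5 libraries, 19 of the 164 scans of named members had 1 library that stood apart from the other 4 by Dixon's criterion (0.71 of the range), and chance alone flags about 1 scan in 20. Of these, 6 were the muscle-rich replicate 2 of iWAT at 22 °C: Cacna1s at 23.7 CPM, Scn4a at 9.99, Scn4b at 13.9, Cacnb1 at 6.38, Cacng1 at 3.35 and Kcnj11 at 2.62 CPM. The muscle-richest libraries of 2 BAT groups were flagged likewise, 6 h replicate 2 with 18.7 CPM of Cacna1s and 7.46 CPM of Scn4a, and 24 h replicate 5 with 2.3 CPM of Kcna7 and 1.72 CPM of Kcnma1.

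The other flags were single genes. BAT 24 h replicate 5 was high for Kcnh6 (17.9 CPM), and BAT 24 h replicate 1 for Kcnk3 (1046 CPM, with 767 to 835 CPM in the others). In BAT at 22 °C replicate 2 was high for Cacna1c (6.21 CPM) and low for Kcnj15 (0.914 CPM). In iWAT, Kcnh2 was high in 6 h replicate 3 (7.32 CPM), Kcnn1 in 6 h replicate 1 (4.94 CPM), Scn4b in 6 h replicate 5 (2.06 CPM) and Kcnj15 in 24 h replicate 4 (33.4 CPM), while Scn7a was low in 24 h replicate 1 (109 CPM).

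The response to cold differed between the depots by an edgeR test of the difference, BAT minus iWAT, for Cacna1a at 6 h (2.20) and 24 h (1.54), for Kcnk6 (0.92) and Kcnj15 (−1.24) at 6 h, and for Kcnk13 (2.44) and Kcnk3 (−1.26) at 24 h, all on the log2 scale.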

How the results depend on the processing

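RLE factors kept all 303 results of named members on their side of the threshold, and 34 of the 76 called results were lost under at least 1 alternative. Leaving out 1 library gave counts of channel genes called of 5 to 17 in iWAT at 6 h, 10 to 15 in iWAT at 24 h, 0 to 0 between the iWAT times, 7 to 17 in BAT at 6 h, 10 to 15 in BAT at 24 h, 0 to 2 between the BAT times, 48 to 59 between depots, and 2 to 6 and 1 to 4 for the differences of responses at 6 h and 24 h. With limma on log2(FPKM + 0.1) and log2(FPKM + 1), iWAT at 6 h gave 21 and 21 in place of 12. Calls over all genes there were 4783 and 4899 in place of 3148. BAT at 6 h gave 11 and 11 in place of 7, with 2882 and 2867 over all genes in place of 2967. The fit on log2(FPKM + 1) gave 2 between the BAT times in place of 1. In place of 3 each, the differences of responses gave 8 with log2(FPKM + 1) and 6 with DESeq2 at 6 h, and 7 with log2(FPKM + 0.1), 11 with log2(FPKM + 1), 7 with DESeq2 and 5 with only the contrast's groups at 24 h. The muscle covariate gave 5 in iWAT at 6 h, with 1597 calls over all genes in place of 3148, and 3 between the BAT times. Directions reversed between depots under the muscle covariate for Cacna2d1 (−0.86), Kcnj2 (−1.88), Kcnma1 (−1.11), Kcnq5 (−0.29) and Scn4a (−0.82). They reversed in the differences of responses for Kcnh6 (1.67 and 0.85 at 6 h with log2(FPKM + 0.1) and log2(FPKM + 1), 0.87 at 24 h with log2(FPKM + 1)), Kcnj14 (0.70) and Kcnk5 (0.37) at 24 h with log2(FPKM + 1). The cause was not tested. Deviations of same-numbered libraries correlated at −0.323 to 0.328 in iWAT (3 of 15 pairs over 0.1). In BAT they correlated at −0.567 to 0.553 (median 0.117, 8 of 15 pairs over 0.1, beside a median of −0.0169 for other pairs). Across depots the range was −0.581 to 0.56 (median 0.025, 9 of 45 pairs over 0.1, beside −0.0117). Pairs within a depot came from different temperature groups, and those across depots mixed the groups. These values thus cannot exclude that the depots of 1 mouse share a number. No label says so, and the numbers were not taken to pair the libraries. With the replicate block the counts stayed within 1.5 times, and 4 results of named members lost and 4 gained a call. DESeq2 gave no adjusted p for 14 results. Members under about 0.3 CPM were left out by the filter, and the fit with no filter did test them.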
